A study of Homo sapiens with 8 samples.

Results

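The cells are PC9, an established line from a human lung adenocarcinoma. They were treated with GSK126, an inhibitor of EZH2, the methyltransferase that deposits H3K27me3. The promoters described here are those of PC9 cells treated with 1 μM GSK126 for 5 days, classed by the presence of H3K27me3 and of H3K4me3 in ChIP-seq. The GSK126-treated cells account for 4 of the 8 libraries of the study, namely 2 of H3K27me3 and 2 of H3K4me3, and the other 4 libraries came from cells treated with DMSO for 5 days and were used as the control. All libraries came from the same cell line, and chromatin of D. melanogaster had been added before immunoprecipitation as a spike-in. The deposited data were lists of islands, which are regions of the human genome (hg19, or GRCh37) enriched for tags, and the GSK126 libraries account for 8 of the 14 lists. The promoter of a gene was taken as 2 kb either side of the start of its record in the annotation, for 20090 protein-coding genes on chromosomes 1 to 22 and X. A promoter was classed as marked where an island of both libraries of a mark overlapped this window by at least 1 bp, as unmarked where an island of neither library did, and as discordant where the libraries differed for either mark. Spike-in lists were used throughout unless the standard lists are named.

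H3K27me3 is deposited by PRC2, a complex built around EZH2 or EZH1 with EED and SUZ12, and it marks promoters of silent genes, many of them developmental regulators. H3K4me3 is deposited by the KMT2 and SETD1 enzymes at the starts of active genes and at CpG islands. Promoters that carry both marks are called bivalent and are known best from stem cells, where they belong to genes that are silent but remain ready for activation. An inhibitor of EZH2 blocks new methylation, and marks already in place are lost as they are diluted by division or removed by demethylases.

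The sequences below show what kind of DNA the marked starts sit in. They are the 200 bases upstream of the gene start in GRCh37, on the strand of the gene and from 5′ to 3′, with CpG sites in capitals, for the genes with the strongest H3K27me3 islands or the longest H3K4me3 islands of each class. The first set belongs to promoters that carried both marks with GSK126, at CEP72 (chr5:612255-612454, plus strand) and FAM166C (chr2:26785253-26785452, plus strand).
CEP72: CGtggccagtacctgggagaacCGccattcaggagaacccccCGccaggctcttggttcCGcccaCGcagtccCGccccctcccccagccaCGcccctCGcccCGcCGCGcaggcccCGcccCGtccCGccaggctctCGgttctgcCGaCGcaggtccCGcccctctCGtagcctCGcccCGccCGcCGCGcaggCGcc
FAM166C: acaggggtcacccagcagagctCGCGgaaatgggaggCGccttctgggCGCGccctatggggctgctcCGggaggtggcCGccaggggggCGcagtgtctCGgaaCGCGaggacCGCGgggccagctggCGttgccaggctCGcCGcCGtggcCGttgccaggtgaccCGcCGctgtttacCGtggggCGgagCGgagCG
They held 25 and 24 CpG sites, respectively, and 77.5% and 74.0% G and C. The next set belongs to promoters with H3K27me3 alone, at the transporter genes SLC6A19 (chr5:1201510-1201709, plus strand) and SLC6A3 (chr5:1445556-1445755, minus strand).
SLC6A19: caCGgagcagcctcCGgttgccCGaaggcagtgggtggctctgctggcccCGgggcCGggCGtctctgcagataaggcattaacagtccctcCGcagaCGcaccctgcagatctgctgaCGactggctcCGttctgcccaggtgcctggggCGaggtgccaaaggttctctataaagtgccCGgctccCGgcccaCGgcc
SLC6A3: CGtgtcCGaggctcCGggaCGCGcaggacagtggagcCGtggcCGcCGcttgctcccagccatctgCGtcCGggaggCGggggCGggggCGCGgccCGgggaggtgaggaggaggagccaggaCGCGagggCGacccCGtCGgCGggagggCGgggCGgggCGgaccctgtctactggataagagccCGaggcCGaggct
These held 14 and 26 CpG sites. The next pair belongs to the promoters with the longest H3K4me3 islands and no H3K27me3, at PMEPA1 (chr20:56286593-56286792, minus strand) and UPK2 (chr11:118795673-118795872, plus strand).
PMEPA1: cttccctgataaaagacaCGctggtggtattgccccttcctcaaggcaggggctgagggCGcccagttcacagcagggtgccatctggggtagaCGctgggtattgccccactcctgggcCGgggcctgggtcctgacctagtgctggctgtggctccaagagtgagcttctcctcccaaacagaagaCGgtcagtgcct
UPK2: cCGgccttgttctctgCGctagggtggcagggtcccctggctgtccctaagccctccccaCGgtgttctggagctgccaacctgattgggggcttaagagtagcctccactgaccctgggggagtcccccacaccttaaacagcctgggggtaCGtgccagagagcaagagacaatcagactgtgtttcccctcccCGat
Each of these held 5 CpG sites, fewer than any of the H3K27me3-marked sequences above. Their class as a whole went the other way, with a higher CpG content than the promoters with H3K27me3 alone. The last sequence belongs to a promoter that carried H3K27me3 with DMSO and in neither library with GSK126, that of PCMTD2 (chr20:62886848-62887047, plus strand).
PCMTD2: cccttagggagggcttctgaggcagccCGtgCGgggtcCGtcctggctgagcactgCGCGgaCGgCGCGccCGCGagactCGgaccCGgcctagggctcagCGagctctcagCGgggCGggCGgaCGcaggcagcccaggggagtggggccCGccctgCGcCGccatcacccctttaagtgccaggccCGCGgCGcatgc
It held 23 CpG sites. The sequences are examples, and the CpG content of whole classes is given further down.

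With GSK126, H3K4me3 marked most promoters and H3K27me3 a minority. An H3K27me3 island was present at 2319 promoters (11.5%) in replicate 1 and at 2278 (11.3%) in replicate 2, and an H3K4me3 island at 12577 (62.6%) and 12104 (60.2%). The replicates of H3K27me3 shared 1993 promoters (9.92% of all promoters), or 85.9% of those of replicate 1 and 87.5% of those of replicate 2, while 611 were marked in 1 library of the mark. The replicates of H3K4me3 shared 12074 promoters (60.1%), or 96.0% and 99.8%, and 533 were marked in 1 library. The tag number behind each list, read from the island scores, was 5.09 M and 6.06 M (M for mega) for H3K27me3 with GSK126 and 19.7 M and 3.50 M for H3K4me3. The 4 lists therefore do not have the same power to detect a mark, and H3K4me3 replicate 2 and both H3K27me3 lists were shallow. Promoters without an island had no enrichment detectable at this depth.

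Taking both marks and both replicates together, 11346 promoters (56.5%, 95% Wilson confidence interval 55.8% to 57.2%) were H3K4me3 only, 1364 (6.79%, 6.45% to 7.15%) were H3K27me3 only, 521 (2.59%, 2.38% to 2.82%) carried both marks, and 5738 (28.6%) carried neither. The remaining 1121 promoters (5.58%) were discordant. Of these, 402 had H3K4me3 in 1 library and no H3K27me3, and 381 had H3K27me3 in 1 library and no H3K4me3. The intervals cover counting error only, and neighbouring promoters that share an island are not independent. Since the libraries came from bulk cells, both marks on the same gene copies and marks on different cells or alleles cannot be told apart.

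The marks tended to occupy different promoters. Of the 1993 promoters with H3K27me3, 26.1% also had H3K4me3 in both libraries and 68.4% had it in neither. In contrast, 64.9% of the 17486 promoters without H3K27me3 carried H3K4me3. Read the other way, H3K27me3 was present at 4.32% of the 12074 promoters with H3K4me3, compared to 18.2% of the 7483 promoters without it. These shares are a description over promoters, which are not replicates, and no test was applied to them.

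The standard lists of the same GSK126 libraries hold more tags, 18.1 M and 20.7 M for H3K27me3 and 23.6 M and 4.03 M for H3K4me3. In these lists, 11052 promoters (55.0%) were H3K4me3 only, 1904 (9.48%) H3K27me3 only, 824 (4.10%) carried both marks, 5131 (25.5%) neither, and 1179 (5.87%) were discordant. H3K27me3 was present in both libraries at 2886 promoters (14.4%) and H3K4me3 at 12141 (60.4%). All 521 promoters with both marks in the spike-in lists carried both in the standard lists. The promoters that joined the class in the standard lists came from 186 discordant promoters, 113 that were H3K4me3 only and 4 that were H3K27me3 only. The size of the bivalent class with GSK126 thus depended on which of the 2 lists of a library was used.

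**Figure D1:**
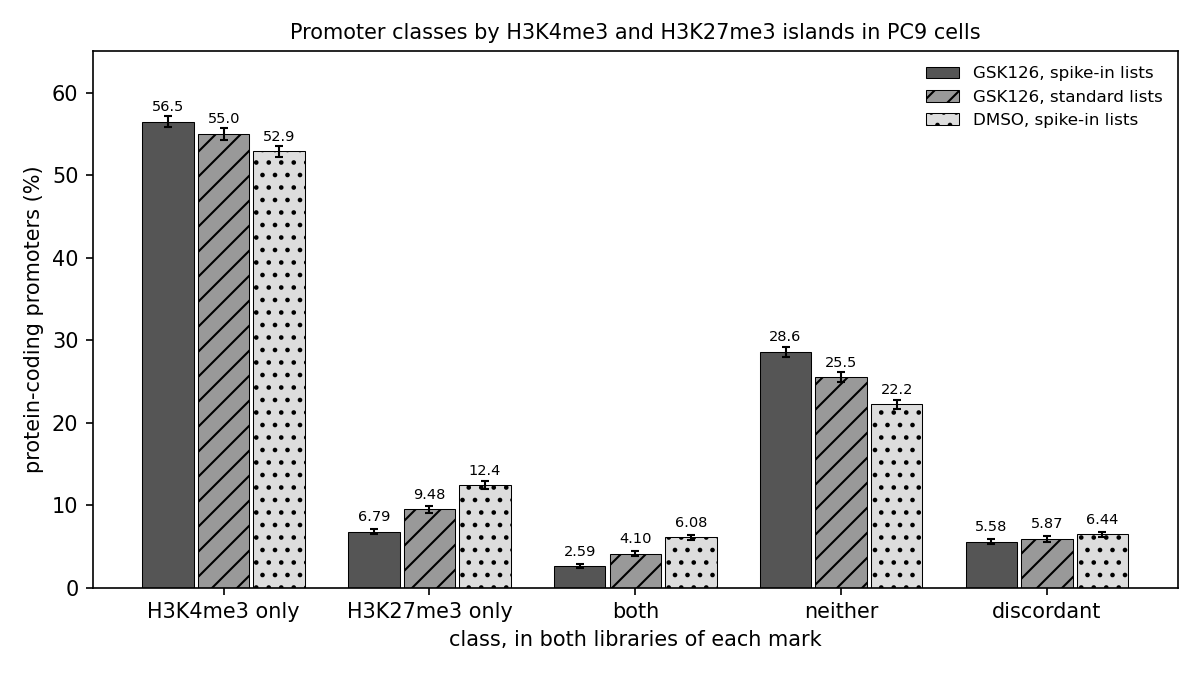
Share of 20090 protein-coding promoters (%, vertical axis) in each class for the GSK126 spike-in lists, the GSK126 standard lists and the DMSO spike-in lists, where the H3K4me3 libraries with DMSO have a single list each. Bars give the share over 2 libraries per mark and error bars the 95% Wilson interval. The class with both marks held 2.59% and 4.10% of promoters with GSK126, compared to 6.08% with DMSO.

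Promoters with both marks and the highest-scoring H3K27me3 islands included those of CEP72, a centrosomal protein gene, PHF21B, which encodes a PHD finger protein, FAM166C, NTNG2, which encodes netrin G2, PTP4A3, a phosphatase gene, GLI2, a transcription factor of Hedgehog signalling, MCF2L, a guanine nucleotide exchange factor gene, ADRA2B, an adrenergic receptor gene, and EMX1, a homeobox gene of the forebrain. H3K27me3 covered 100% of the 4-kb window in both libraries at FAM166C, NTNG2, GLI2, MCF2L, ADRA2B and EMX1. At EMX1, the H3K27me3 islands were 24.6 and 28.0 kb long, and H3K4me3 covered 80.0% and 50.0% of the window. At GLI2, the H3K27me3 islands were 21.2 and 20.4 kb long with H3K4me3 over 65.0% and 40%. These genes were chosen by island score, and the median H3K27me3 island of the class was 4.60 and 5.60 kb long. Where H3K27me3 covered the whole window, the H3K4me3 in the window lay inside H3K27me3 islands. PTP4A3 differed from this in replicate 1. There, its H3K27me3 island began downstream of the start and covered 70.0% of the window, compared to 100% in replicate 2. CEP72 differed in both libraries. Its H3K27me3 island of 45.8 and 46.0 kb ended upstream of the start and reached into 38.6% of the window. H3K4me3 covered 100% and 90% of the window at CEP72. PHF21B lay at the edge of its island as well, with H3K27me3 over 92.1% and 62.1% of the window and islands of 51.4 and 50.2 kb. All of these promoters carried both marks with DMSO. At PTP4A3, the H3K27me3 islands were 109 and 110 kb long with DMSO and 60.0 and 49.8 kb with GSK126, whose lists hold fewer tags.

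The promoters with H3K27me3 alone and the highest scores lay in longer islands. They belonged to SLC6A19, an amino acid transporter gene, SLC6A3, the dopamine transporter gene, CHRNA4, an acetylcholine receptor subunit gene, ADAMTSL2, ARC, an immediate early gene of neurons, IRX4, a homeobox gene of the heart, SOHLH1, a transcription factor gene of germ cells, GALNT9, C14orf180 and DBH, which encodes dopamine β-hydroxylase. H3K27me3 covered 100% of the window in both libraries at all 10, and H3K4me3 covered none of it. The islands of SLC6A3 were 105 kb in both GSK126 libraries, compared to 111 and 110 kb with DMSO. Those of SLC6A19 were 87.6 and 90.6 kb, compared to 137 and 134 kb. At IRX4, the islands were 51.4 and 76.2 kb with GSK126 and 124 and 139 kb with DMSO. The start was covered with and without the inhibitor in these genes. The island around it was shorter in the GSK126 lists, which hold fewer tags than the DMSO lists. At ADAMTSL2, CHRNA4, C14orf180 and DBH, the lengths with GSK126 and DMSO overlapped. The islands of ADAMTSL2 were 119 and 183 kb with GSK126 and 94.0 and 239 kb with DMSO, and those of CHRNA4 were 91.6 and 77.4 kb and 91.4 and 175 kb, respectively. SLC6A19, SLC6A3 and IRX4 lie near each other on chromosome 5, with starts at 1201710, 1445555 and 1887350, and CEP72 starts at 612455 on the same arm.

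The longest H3K4me3 islands at promoters without H3K27me3 were at PMEPA1, a target gene of TGF-β signalling, UPK2, which encodes a uroplakin, RECQL4, a helicase gene, TINAGL1, and EPHA2, a receptor tyrosine kinase gene. At PMEPA1 the H3K4me3 island was 32.6 kb long in replicate 1 and 9.20 kb in replicate 2, and it covered 100% and 85.2% of the window. At EPHA2 the lengths were 23.4 and 6.60 kb. The libraries differed in length at each of these genes, with the shorter island in the library of 3.50 M tags, and the part of depth in that was not tested. H3K27me3 had no island over any of the 5 windows in either treatment.

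Of 10 further genes fixed by name, CCND2, which encodes cyclin D2, was H3K27me3 only. H3K27me3 covered 78.4% and 83.4% of its window with GSK126, in islands of 38.8 and 39.6 kb, and 83.4% and 83.4% with DMSO. MYT1, a neural zinc finger gene, had H3K27me3 over 100% of the window in both GSK126 libraries and H3K4me3 over 35.0% in replicate 1 and none in replicate 2, and was therefore discordant. The covered share of a window gives the extent of an island and not the level of the mark. By ChIP-qPCR, the authors found less H3K27me3 at the MYT1 promoter with GSK126. TMEM114 had H3K27me3 over 62.6% of the window in replicate 1 and none in replicate 2, compared to 80.0% and 100% with DMSO. FBXO39 had no H3K27me3 island in either GSK126 library, compared to 88.3% and 85.0% of the window with DMSO, and carried neither mark. METTL22, which carried both marks with DMSO, was H3K4me3 only with GSK126, where its H3K27me3 with DMSO had covered 6.52% and 26.5% of the window. ABAT, ACTB and EPB41L1 were H3K4me3 only in both treatments, and APOL1 and MPEG1 carried neither mark with GSK126. None of these 10 genes carried both marks in the spike-in lists, where 2.59% of all promoters did, so that this count says little about them.

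The shape of the marks differed between classes. At promoters with both marks, the median H3K27me3 island was 4.60 kb long in replicate 1 and 5.60 kb in replicate 2 and covered 70.0% and 76.2% of the window. At promoters with H3K27me3 only, it was 6.80 and 8.20 kb long and covered 80.0% and 91.4%. Islands of 40 kb or more lay over 0.768% and 1.92% of the promoters with both marks, and over 4.40% and 7.77% of those with H3K27me3 only. H3K4me3 islands were shorter where H3K27me3 was present as well, with medians of 3.40 and 1.60 kb at promoters with both marks and 4.20 and 2.20 kb at promoters with H3K4me3 only. The order was the same in both libraries of each mark, and the difference between replicates of H3K4me3 was larger than that between classes.

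Most promoters with both marks carried them over the same bases. In each of the 4 pairs of an H3K27me3 and an H3K4me3 library, islands of the marks shared at least 1 base at 87.5% to 95% of the 521 promoters, and 450 promoters had shared bases in all 4 pairs. The median share of the H3K4me3-covered bases that lay inside an H3K27me3 island was between 87.5% and 100%. At 23 promoters the marks lay side by side in the window without a shared base in any pair. At 52 promoters H3K27me3 covered under 1000 bp of the window in at least 1 library, so that they belong to the class by the edge of an island. Conversely, 26 promoters classed as H3K4me3 only had an H3K27me3 island within 1000 bp outside the window in both libraries.

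The start itself was more often inside the H3K4me3 island than inside the H3K27me3 island. Among promoters with both marks, the first base of the gene lay in an H3K27me3 island at 70.1% and 75.6%, and in an H3K4me3 island at 88.1% and 76.8%. Among promoters with H3K4me3 only, it lay in an H3K4me3 island at 97.4% and 93%. At 10 kb downstream of the start, H3K27me3 islands still covered 42.1% and 43.5% of the promoters with H3K27me3 only, compared to 20.2% and 21.3% of those with both marks. At 10 kb upstream, these shares were 34.0% and 36.1%, and 18.6% and 18.8%. H3K27me3 thus extended further from the start, on either side, in the class without H3K4me3. Around promoters with H3K4me3 only, H3K27me3 covered 0.855% and 0.828% at 10 kb downstream.

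**Figure D2:**
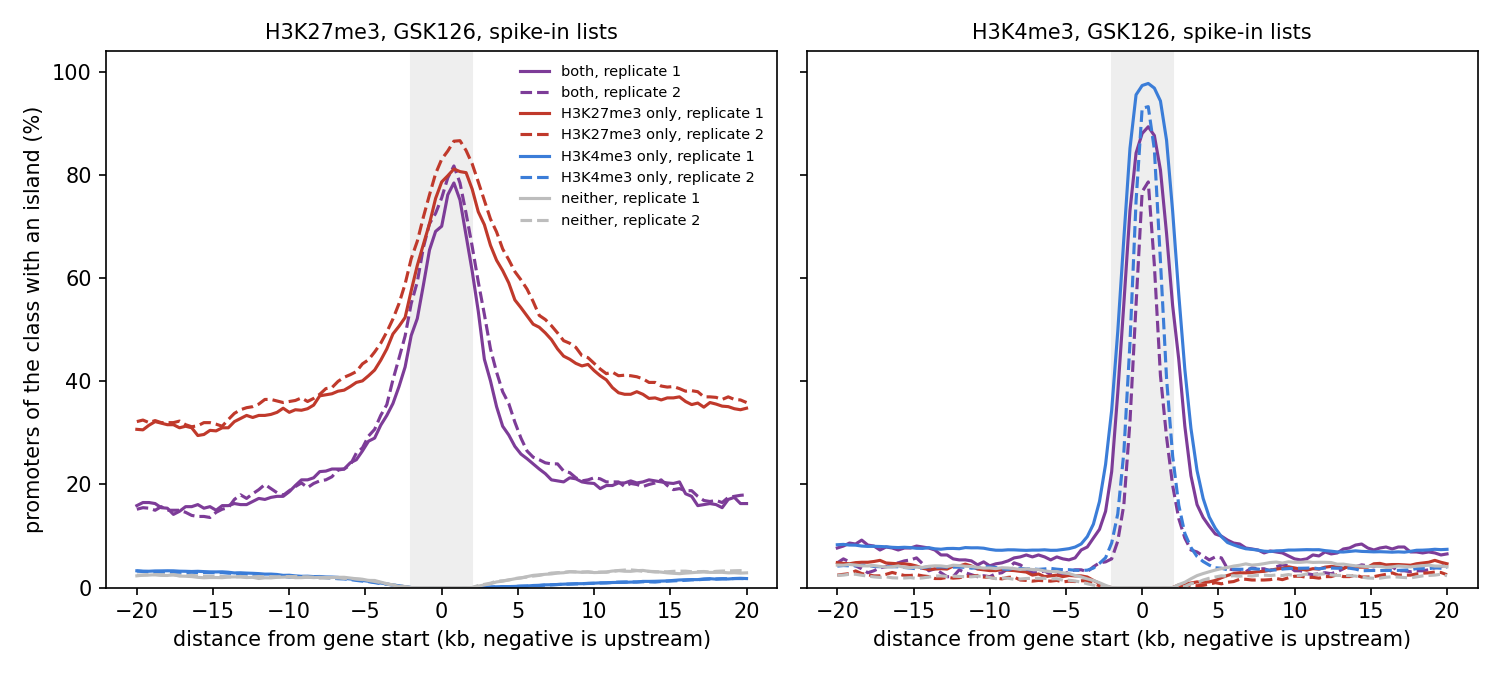
Share of promoters of a class (%, vertical axis) with an island at each distance from the gene start (kb, horizontal axis, negative upstream), for H3K27me3 (left) and H3K4me3 (right) with GSK126. Colours are classes, solid lines replicate 1 and dashed lines replicate 2, and the grey band is the window that defines the classes, in which the curves follow from the class. Outside the band, H3K27me3 was highest around H3K27me3-only promoters, at 34.0% and 36.1% at 10 kb upstream.

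CpG content, which was not used to form the classes, differed between them. The ratio of observed to expected CpG sites in the window had a median of 0.57 at promoters with H3K4me3 only, 0.56 at promoters with both marks, 0.36 at promoters with H3K27me3 only and 0.26 at promoters with neither, compared to 0.50 over all promoters. Promoters with both marks therefore resembled those with H3K4me3 only in CpG ratio, and they had the highest G and C content, with a median of 57.9% compared to 54.8% for H3K27me3 only and 51.4% for H3K4me3 only. A ratio above 0.6 was found at 40.3% of promoters with both marks and at 15.5% of those with H3K27me3 only. When the ratio was counted within 500 bp of the start, the medians were 0.77, 0.76, 0.44 and 0.27 in the same order. The H3K27me3-only class was spread widely, with quartiles of 0.25 and 0.73 in the narrower window, and thus held CpG-rich starts such as SLC6A3 (0.67 in the wider window) and CpG-poor starts such as ADAMTSL2 (0.25).

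**Figure D3:**
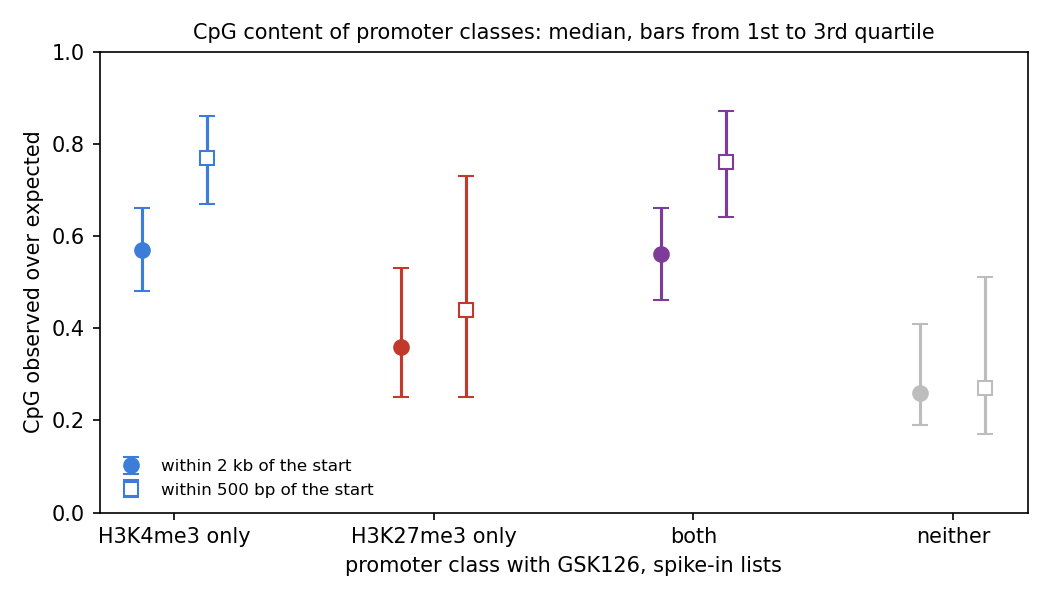
Ratio of observed to expected CpG sites (vertical axis) by promoter class with GSK126, within 2 kb (filled circles) and within 500 bp (open squares) of the start. Symbols give the median over promoters and bars run from the first to the third quartile. The classes with H3K4me3 have medians of 0.56 and 0.57 in the wider window, above the 0.36 of H3K27me3 only and the 0.26 of neither.

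Compared with DMSO, the number of promoters with an H3K27me3 island was lower with GSK126. It was 2319 and 2278 with GSK126 and 4201 and 4374 with DMSO, so that the libraries of the treatments did not overlap. The mean with GSK126 was 53.6% of that with DMSO (log2 ratio -0.90). An exact permutation test, two-sided over 6 splits, gave p = 0.333, the smallest value that 2 libraries against 2 allow. For H3K4me3, the numbers were 12577 and 12104 with GSK126 and 12760 and 12191 with DMSO, or 98.9% of DMSO (log2 ratio -0.02, exact permutation p = 0.667), and the libraries of the treatments overlapped. Within each of the 2 sets of libraries that their titles set apart, the number with GSK126 was lower than with DMSO. It was 55.2% and 52.1% for H3K27me3 and 98.6% and 99.3% for H3K4me3. For H3K4me3, the GSK126 spike-in lists hold 19.7 M and 3.50 M tags and the single DMSO lists 23.6 M and 4.03 M. With the standard GSK126 lists, which equal the DMSO lists in tags, the H3K4me3 shares were 99.1% and 99.9%. An exact paired permutation test over these sets cannot go below 0.5, the value it gave for each mark. In the standard lists, which hold equal tag numbers for the treatments within a replicate, the H3K27me3 promoters with GSK126 numbered 3393 and 3050, or 81.0% of the 3988 and 3964 with DMSO (log2 ratio -0.30, exact permutation p = 0.333). The GSK126 spike-in lists of H3K27me3 hold 5.09 M and 6.06 M tags and the DMSO lists 22 M and 31.0 M, because tags had been removed from the former according to the spike-in. Treatment and tag number cannot be told apart in these lists.

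Of the 3920 promoters with H3K27me3 in both DMSO libraries, 1985 (50.6%) were marked in both GSK126 libraries and 1365 (34.8%) in neither. Among 15435 promoters without H3K27me3 in either DMSO library, a single promoter (0.00648%) was marked in both GSK126 libraries. The GSK126 lists hold fewer tags than the DMSO lists, which limits the detection of new islands, and with the standard lists 30 of 15736 promoters (0.191%) were newly marked. The single promoter of the spike-in lists was that of RNF180, a ubiquitin ligase gene with its start at 63461670 on chromosome 5, where H3K27me3 covered 45% of the window in both libraries in an island of 1.80 kb, and where H3K4me3 covered 40% and 20%. Of the 1993 promoters with H3K27me3 in both GSK126 libraries, 1985 thus carried it in both DMSO libraries.

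The fate of a promoter differed with its class in DMSO. Of the 1222 promoters with both marks in DMSO, 485 carried both with GSK126, 464 were H3K4me3 only and 264 were discordant, whereas 7 were H3K27me3 only and 2 carried neither. Of the 2490 promoters with H3K27me3 only in DMSO, 1308 remained H3K27me3 only, 803 carried neither mark and 375 were discordant. H3K27me3 was present per GSK126 library at 53.1% and 51.3% of the former (52.2% ± 1.27, SD, n = 2) and at 60.3% and 60.0% of the latter (60.1% ± 0.227, SD, n = 2). The promoters with H3K27me3 only were thus higher in both libraries, by more than the spread between them. With the standard lists, the shares were 79.1% ± 6.08 of 1104 promoters and 85.6% ± 3.84 of 2301 (SD, n = 2). The promoters with H3K27me3 only were higher in each library, at 88.3% compared to 83.4% and at 82.9% compared to 74.8%. In these lists, 735 of the 1104 promoters carried both marks with GSK126 and 147 (13.3%) were H3K4me3 only, compared to 38.0% in the spike-in lists. Of the 2301, 1808 remained H3K27me3 only and 202 (8.78%) carried neither mark, compared to 32.2%.

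Island length moved with this difference. Promoters that were marked in both GSK126 libraries had median H3K27me3 islands with DMSO of 10.0 and 10.8 kb if they carried both marks in DMSO, and of 15.4 and 18.6 kb if they carried H3K27me3 only. Promoters marked in neither GSK126 library had medians of 4.60 and 4.90 kb, and of 4.40 and 5.20 kb. Within a range of lengths the order of the classes changed. At DMSO islands under 4 kb, 28.1% ± 3.14 of the promoters with both marks were marked with GSK126, compared to 16.9% ± 2.66 of those with H3K27me3 only (SD, n = 2 libraries). At 4 to 8 kb the shares were 43.9% ± 2.36 and 38.1% ± 1.45. At 8 to 16 kb they were 62.1% ± 0.763 and 69.5% ± 0.114, and at 16 kb or more 80.6% ± 0.277 and 88.9% ± 1.68. H3K27me3-only promoters were therefore marked more often in long DMSO islands and less often in short ones. Of the 2490, 841 lay in islands of 16 kb or more, compared to 255 of the 1222 with both marks. The GSK126 lists used here hold fewer tags than the DMSO lists. The part of depth in the shares by length was not tested.

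**Figure D4:**
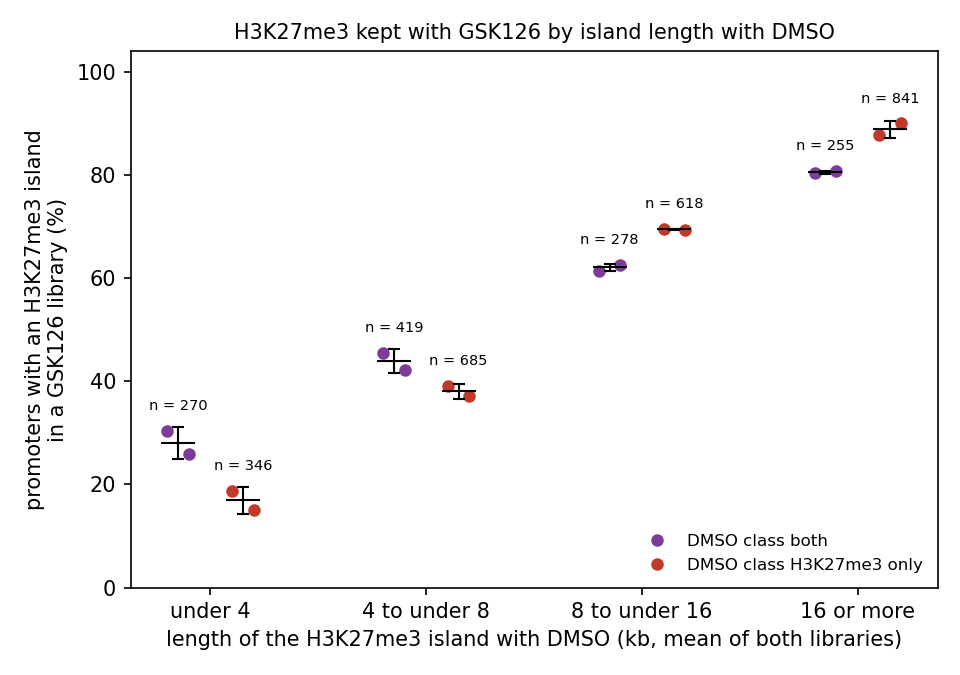
Share of promoters with H3K27me3 in both DMSO libraries that had an H3K27me3 island in a GSK126 library (%, vertical axis), by the mean length of the H3K27me3 island with DMSO (kb, horizontal axis) and by class in DMSO. Points are the 2 GSK126 libraries, horizontal marks their mean and error bars the SD, and n is the number of promoters. The share rose with island length in both classes, from 28.1% to 80.6% and from 16.9% to 88.9%. The GSK126 lists hold fewer tags than the DMSO lists, and the part of depth in this was not tested.

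Islands that were still present with GSK126 were shorter than with DMSO over the same promoters. At the 517 promoters with both marks that had H3K27me3 in both DMSO libraries, the median island went from 9.0 and 10.0 kb with DMSO to 4.80 and 5.60 kb with GSK126. At the 1360 corresponding promoters with H3K27me3 only, it went from 15.6 and 18.7 kb to 6.80 and 8.20 kb. The GSK126 lengths were below the DMSO lengths in each library. Where a promoter was unmarked with GSK126, the whole DMSO island was usually without a GSK126 island. This was so for 80.0% and 77.1% of the 490 promoters that had carried both marks, by the island of DMSO replicate 1 and 2, respectively, and for 84.7% and 81.0% of the 815 that had carried H3K27me3 only. At 13.5% and 17.1% of the former, both GSK126 libraries still had an island elsewhere within the DMSO island. The part of depth in these shares was not tested either.

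The unmarked promoters whose DMSO islands had the highest scores lay in long DMSO islands that covered part of the window. They were PCMTD2, RBBP8NL, ZNF862, CTU1, PHYKPL, CFAP74, NECTIN1, NPTX2, KLF13 and PEX10. Over all unmarked promoters, the median DMSO island was 4.40 to 5.20 kb long, by DMSO class and library. At PCMTD2, H3K27me3 with DMSO covered 48.8% and 18.8% of the window in islands of 79.4 and 78.2 kb, and H3K4me3 with GSK126 covered 86.2% and 60.0%. At RBBP8NL it covered 14.9% and 34.9% in islands of 68.4 and 69.2 kb. NPTX2, which encodes neuronal pentraxin 2, differed between DMSO libraries, with 94.9% in replicate 1 and 34.9% in replicate 2, and carried neither mark with GSK126. In the standard lists of GSK126, H3K27me3 was present in both libraries at PCMTD2, CTU1 and KLF13 and in neither at RBBP8NL, ZNF862 and PEX10. Thus, whether PCMTD2, CTU1 and KLF13 counted as unmarked depended on the list.

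H3K4me3 rarely appeared where H3K27me3 was no longer found. Among the 815 promoters without H3K4me3 in either DMSO library that were without H3K27me3 in both GSK126 libraries, 2 had H3K4me3 in both GSK126 libraries and 10 in 1 of them. Across all promoters, H3K4me3 was in neither DMSO and in both GSK126 libraries at 5 of 7317 (0.0683%), and in both DMSO and neither GSK126 libraries at 23 of 12178 (0.189%). The 5 promoters, named after their values were seen, were those of NCMAP, PLPPR4, SPAG17, UGT3A2 and PPFIA2, and each was H3K27me3 only with DMSO. At UGT3A2, H3K27me3 went from 100% and 93.5% of the window with DMSO to none, and H3K4me3 from none to 40% and 20%. At SPAG17, H3K27me3 went from 70.0% and 86.3% to none, and H3K4me3 from none to 35.0% and 10.0%. At PLPPR4 and PPFIA2, H3K27me3 was still present, over 81.2% and 91.2%, and over 55.0% and 50.0% of the window. H3K4me3 thus covered 50.0% of the window or less at each of them. UGT3A2 had H3K27me3 in both libraries of the standard lists, over 28.5% and 18.5%, and SPAG17 in 1 of them.

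Developmental regulators carried H3K27me3 with GSK126 more often than promoters in general. The counts that follow are to be read against all promoters. Of these, 9.92% had H3K27me3 in both GSK126 libraries, 2.59% had both marks and 56.5% had H3K4me3 only. Counts of genes marked in DMSO are to be read against all promoters marked there. Of those, 50.6% were marked in both GSK126 libraries and 34.8% in neither. Among 15 neurogenic basic helix-loop-helix genes, 8 carried H3K27me3 (53.3%), 7 of them without H3K4me3. NEUROG3 had H3K27me3 over 100% of the window in both libraries, in islands of 36.8 and 55.2 kb, NEUROD1 over 63.8% and 43.8% in islands of 4.80 and 4.20 kb, and NEUROG2 carried both marks. NEUROD4, H3K27me3 only with DMSO, carried neither mark with GSK126. Of the 11 genes of this list with H3K27me3 in both DMSO libraries, 8 were marked with GSK126 and 2 were not in either library, compared to 50.6% and 34.8% of all such promoters. With the standard lists, 11 genes of the list carried H3K27me3.

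Among 53 homeobox and paired-box genes of the PAX, LIM, NKX, DLX, IRX and related families, which pattern tissues of the embryo, 23 carried H3K27me3 (43.4%), and 18 of these had no H3K4me3. PAX2, LMX1B and PAX4 were H3K27me3 only, with islands of 47.8 and 46.2 kb at PAX2. DLX3, DLX4 and NKX2-5 carried both marks, with H3K27me3 over 100% of the window in both libraries and H3K4me3 over 98.8% and 40% at DLX4. LHX1 and NKX1-2 were H3K4me3 only in both treatments. The IRX genes, all 6 named here after their values were seen, were split by cluster. IRX1, IRX2 and IRX4 on chromosome 5 were H3K27me3 only, with H3K27me3 over 39.8% and 60.0% of the window at IRX2 and 26.4% and 1.37% at IRX1, whereas IRX3 and IRX5 on chromosome 16 were H3K4me3 only and IRX6 carried neither mark. Of 36 genes marked in DMSO, 23 (63.9%) were marked with GSK126, compared to 50.6% of all such promoters. DLX6 and ISL2 were among the 6 that were not marked in either library. With the standard lists, 31 genes of the list carried H3K27me3, ISL2 among them.

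In the HOX clusters, 14 of 39 genes carried H3K27me3 (35.9%), 9 without and 4 with H3K4me3, and 8 genes were discordant. HOXD4, HOXD9 and HOXB13 were H3K27me3 only, with 100% of the window covered in both libraries. HOXB9, HOXD8, HOXD12 and HOXA13 carried both marks, and at HOXD12 the H3K27me3 islands were 11.0 and 25.2 kb long with H3K4me3 over 46.9% and 26.9% of the window. HOXB3 and HOXB6 were H3K4me3 only in both treatments, and HOXB8 and HOXC11 were H3K4me3 only with GSK126 and carried both marks with DMSO. Of 24 HOX genes with H3K27me3 in DMSO, 14 were marked with GSK126 and 7 were not in either library. The 14 were 58.3% of these genes, compared to 50.6% of all promoters marked in DMSO. Genes of a cluster share islands, and their counts are not independent.

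Among 41 GATA, SOX and T-box genes, 12 were H3K27me3 only, 13 were H3K4me3 only and none carried both marks in both libraries of each. GATA5 had H3K27me3 islands of 57.0 and 64.4 kb and TBX5, a heart and limb regulator, of 25.4 and 34.2 kb. GATA6 and GATA3 were H3K4me3 only in both treatments, and EOMES carried both marks with DMSO and in the standard lists of GSK126 but H3K4me3 only in the spike-in lists. SOX1 and SOX10, H3K27me3 only with DMSO, carried neither mark with GSK126. Among 52 forkhead genes, 10 carried H3K27me3 (19.2%), and FOXA3, FOXN4 and FOXP2 had both marks. At FOXP2, H3K27me3 covered 100% of the window in both libraries in islands of 4.80 and 5.40 kb, and H3K4me3 covered 100% and 85.0%. FOXA1, a pioneer factor of lung and other endoderm, was H3K4me3 only.

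Of 38 Wnt ligands, receptors and antagonists, 10 carried H3K27me3 (26.3%), and 4 ligand genes, WNT6, WNT11, WNT10A and WNT10B, had both marks. WNT6 had H3K27me3 over 100% of the window in both libraries and H3K4me3 over 93.2% and 30.0%. WNT1, WNT3A, WNT5B and SFRP5, the last an antagonist, were H3K27me3 only, and the antagonist DKK3 carried neither mark with GSK126, although it was H3K27me3 only with DMSO and in the standard lists. FZD1, a receptor gene with both marks in DMSO, was H3K4me3 only. Of 33 ligands of the TGF-β superfamily, 5 carried H3K27me3 (15.2%). INHBB had both marks, with H3K4me3 over 100% of the window in both libraries and H3K27me3 over 62.2% and 100%, and BMP7, GDF6, GDF7 and GDF10 were H3K27me3 only.

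Genes of neuronal excitability carried H3K27me3 often. Of 40 voltage-gated potassium channel genes, 19 carried it (47.5%), 13 without and 5 with H3K4me3. KCNG1 and KCNA10 had H3K27me3 over the whole window in both libraries, whereas KCNH3 had both marks, with H3K27me3 over 80.0% and 100% and H3K4me3 over 80.0% and 35.0%. KCND2 and KCNF1 carried both marks with DMSO and were H3K4me3 only with GSK126, KCNF1 in the spike-in lists and not in the standard ones. Of 45 GABA-A and glutamate receptor genes, 13 carried H3K27me3 (28.9%) and 27 neither mark. GABRD and GRM4 were H3K27me3 only, with islands of 28.8 and 38.4 kb at GABRD, GRIN2D and GRIN3B carried both marks, and GABRE was the only H3K4me3-only member.

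Tissue-restricted gene clusters behaved differently from each other. Of 94 keratin-associated protein genes, which are expressed in hair, 21 were H3K27me3 only (22.3%), none had an H3K4me3 island in either library and 72 carried neither mark, and 21 of the 25 marked in DMSO were marked with GSK126. KRTAP5-5 had H3K27me3 over 100% of the window in both libraries, in islands of 14.6 and 24.2 kb that KRTAP5-4 shared. Of 55 keratin genes, 3 were H3K27me3 only, namely KRT72, KRT73 and KRT74, of the 14 marked in DMSO. KRT18 and KRT19 were H3K4me3 only. Of 414 olfactory receptor genes, 17 were H3K27me3 only (4.11%), of the 62 marked in DMSO, and 383 carried neither mark. With the standard lists, 36 olfactory receptor and 6 keratin genes carried H3K27me3, so that these low counts depended on the list. Of 53 clustered protocadherin genes, 7 were H3K27me3 only (13.2%) and 37 carried neither mark.

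Housekeeping and other broadly expressed genes lay mostly in the class with H3K4me3 only. This was so for 74 of 79 cytosolic ribosomal protein genes, 34 of 39 proteasome subunit genes, 55 of 66 replication-dependent histone genes and 195 of 240 ZNF genes of chromosome 19. The exceptions with both marks were RPL38, where H3K27me3 covered 47.0% and 52.0% of the window and H3K4me3 63.0% and 53.0%, PSMA1, with 64.5% and 60.0% and with 65.0% and 55.0%, and ZNF30. RPL38 carried an H3K27me3 island of 12.4 and 28.8 kb. Of the ZNF genes, 21 had H3K27me3 in both DMSO libraries and 3 in both GSK126 libraries, ZNF30, ZNF420 and ZNF574, with 10 in the standard lists.

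The genes of the writers, readers and erasers of the marks were themselves mostly H3K4me3 only. All 8 genes for the H3K27 demethylases KDM6A and KDM6B and for the KMT2 and SETD1 enzymes were, and so were 9 of 12 genes of PRC2, among them EZH2, with H3K4me3 over 99.7% and 75% of the window, EZH1 and SUZ12. EED, AEBP2 and PHF19 carried neither mark at the start used here. Of 19 genes of PRC1, which binds H3K27me3 through its CBX subunits, 17 were H3K4me3 only, and CBX8 and BMI1 carried both marks. At CBX8, H3K27me3 covered 80.0% and 100% of the window in islands of 7.20 and 10.2 kb, and H3K4me3 73.0% and 45%. At BMI1 the H3K27me3 islands were short, 1.60 and 1.80 kb.

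Genes that bear on the biology of lung adenocarcinoma fell on both sides. Of 7 CDK inhibitor genes, CDKN1C carried both marks, with H3K27me3 over 74.9% and 49.9% and H3K4me3 over 50.0% and 25% of the window, and CDKN1A, CDKN2A, CDKN2B, CDKN2C and CDKN2D were H3K4me3 only. Of 15 EGFR family receptors and ligands, 8 were H3K4me3 only, including EGFR, HBEGF and TGFA, and NRG2 carried both marks. Over all promoters, 56.5% were H3K4me3 only. H3K27me3 was present at 6.67% of the family, compared to 9.92% of all promoters, so that these counts say little about it. With the standard lists, 6 of the 15 were H3K4me3 only. EGFR was discordant there, with H3K27me3 over 82.3% of the window in replicate 1 and none in replicate 2, and also with DMSO, with none in replicate 1 and 77.3% in replicate 2. NRG4 carried both marks with DMSO and was H3K4me3 only with GSK126. All 11 feedback inhibitors of ERK signalling, among them DUSP6 and SPRY2, were H3K4me3 only. Of 15 lung epithelial lineage genes, SFTPA1, a surfactant protein gene, was H3K27me3 only over 65.0% and 45% of the window, and NKX2-1, the lineage factor of lung adenocarcinoma, carried both marks with DMSO and was H3K4me3 only with GSK126.

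Of 11 neuroendocrine marker genes, 4 carried H3K27me3 (36.4%), of 5 marked in DMSO. GRP, CHGB and DLL3 were H3K27me3 only, and ENO2 had H3K27me3 over 100% of the window in both libraries with H3K4me3 over 77.7% and 42.7%. Of 15 genes of the epithelial to mesenchymal transition, TWIST2 and PRRX1 were H3K27me3 only and 11 were H3K4me3 only, including SNAI1 and VIM, which had carried both marks with DMSO, and VIM also in the standard lists of GSK126. Of 15 MHC class II genes, 5 were H3K27me3 only (33.3%), namely HLA-DOA, HLA-DPA1, HLA-DPB1, HLA-DQA2 and HLA-DQB2. They were 55.6% of the 9 marked in DMSO, compared to 50.6% of all promoters marked there. The class II activator CIITA and the invariant chain CD74 were H3K27me3 only with DMSO and carried neither mark with GSK126. In the spike-in lists, 9 of the 15 carried neither mark. In the standard lists, 5 carried neither, 6 were H3K27me3 only and 3 were discordant. Of 13 genes of MHC class I presentation, none had H3K27me3 in both GSK126 libraries, compared to 4 with DMSO, and TAP1 and HLA-C went from both marks to H3K4me3 only. In the standard lists, 3 of the 13 had H3K27me3, among them HLA-C.

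**Figure D5:**
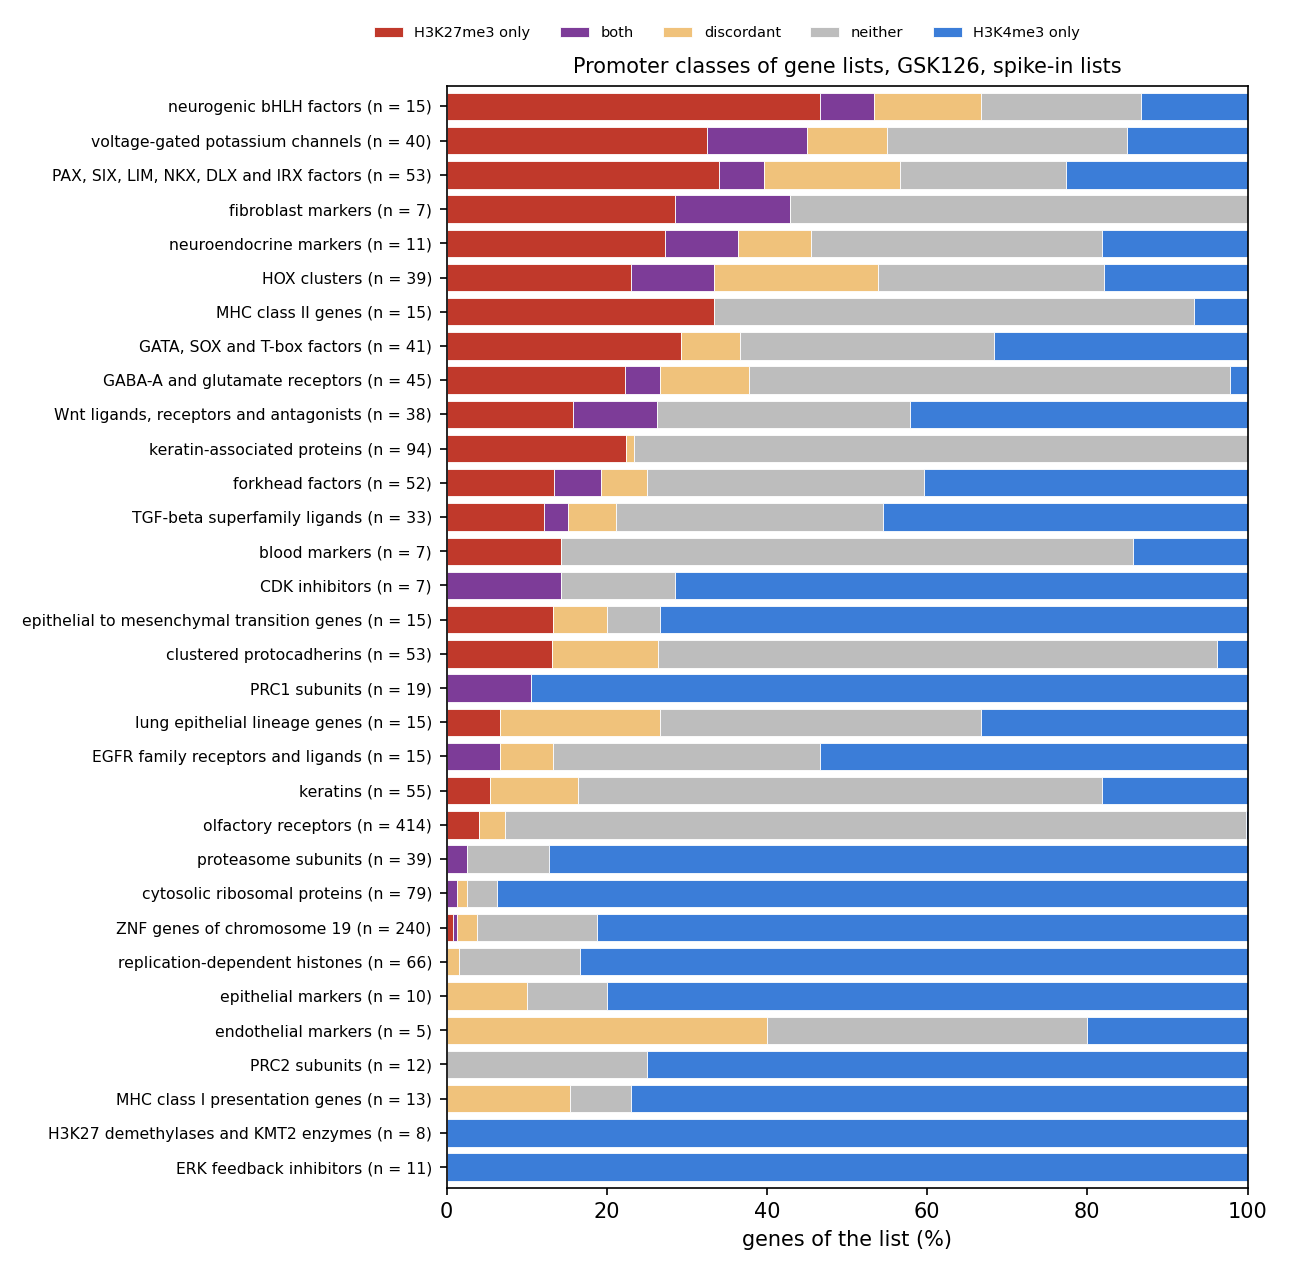
Share of the genes of each list (%, horizontal axis) in the promoter classes with GSK126, with lists ordered by the share with H3K27me3 in both libraries and their number of genes n. The lists with the largest shares were neurogenic bHLH factors (53.3%) and voltage-gated potassium channels (47.5%), compared to 9.92% of all promoters, and the ERK feedback inhibitors and the demethylases and KMT2 enzymes were H3K4me3 only throughout.

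The label of the cell line was checked against markers. Of 10 epithelial marker genes, 8 were H3K4me3 only, among them CDH1, KRT7, KRT8, KRT18 and KRT19. None had H3K27me3, EPCAM had H3K4me3 in 1 library, and 1 gene carried neither mark. Of 7 blood marker genes, PTPRC, CD79A, ITGAM and SPI1 carried neither mark, CD3E was H3K27me3 only, and CD14 had H3K4me3 over 25% and 15.0% of the window. Of 7 fibroblast markers, none was H3K4me3 only, and COL1A1 carried both marks with H3K4me3 over 55.2% and 35.2%. Of 5 endothelial markers, CDH5 had H3K4me3 over 25.2% and 15.2% and KDR in 1 library, while TEK and TIE1 carried neither mark.

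Windows were not equally free of neighbours. Another protein-coding start lay within 2 kb of 30.0% of promoters with H3K4me3 only, 13.2% of those with both marks and 6.74% of those with H3K27me3 only, compared to 20.2% of all promoters. An H3K4me3 island in such a window can belong to the neighbouring gene, and its part in the classes was not tested.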

How the data were processed

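ChIP-seq of H3K27me3 and H3K4me3 was analysed in PC9 cells, with 2 libraries per mark and treatment. Per the study's methods, the authors aligned single-end tags to hg19 and to the fly genome with BWA, removed duplicates, kept mapping qualities over 25 and called islands per library with SICER 1.1 against a random background (windows of 200 bp, E-value 1, with gaps of 600 bp bridged for H3K27me3 and of 200 bp for H3K4me3). Per the submitters' processing notes, SAMtools 0.1.18 was used. The values deposited by the authors are island positions with a SICER score, a unit without fixed range that depends on the tag number of its own list, so that scores were ranked within lists and never compared between them. For the spike-in lists, the GSK126 libraries had been thinned by the correction factor of the fly tags before islands were called, and for the standard lists libraries had been thinned to equal tag numbers between treatments. The authors describe replicates as biological. The labels number no replicates, so numbers follow accession order. Replicate 2 of each group is the library whose title ends in Dmspike, and in the standard lists the treatments of a set hold equal tag numbers. The fits do not pair these sets, and a paired fit was added after seeing the data. P-values come from relabelling these libraries and do not measure the spread between them. The exact permutation test cannot go below 0.333, nor the paired one below 0.5.

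Starts came from GENCODE release 44 lifted to GRCh37, 1 record per symbol, with 8 of 20098 records dropped for a repeated symbol. Islands were intersected with windows in Python 3.11.15 with NumPy 2.4.6, sequence was read with pysam 0.24.0, and Wilson intervals (95%) and exact permutation tests used SciPy 1.17.1. Figures were drawn with Matplotlib 3.10.9. Tag numbers were read from island scores, with a largest misfit of 2.1e-07. The overlap code was tested on simulated data, with 0 of 8000 windows wrong. Depth, and thus the detection of weak islands, differed between lists, and intervals cover counting error only.

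Members and gene lists were chosen with earlier results of these data known, and lists are described by counts beside those of all promoters. Genes were named by rule: the 10 highest H3K27me3 score ranks with both marks, with H3K27me3 only, and (by DMSO rank) unmarked with GSK126, 1 per island; the 5 longest H3K4me3 islands without H3K27me3; up to 5 gained; 10 further genes listed by name; and all members of lists of up to 15 genes or up to 4 per class. Sequences came from the first of these by rank. Some genes and sequences that the rules name are not reported here. Of the endothelial markers, PECAM1 was not matched. Alternatives were the standard lists of both marks or of H3K27me3 alone, windows of 1000 bp either side, at least 1000 bp of the window covered, any protein-coding transcript start, autosomes only, CpG content within 500 bp, a minimum score of 2 times the lowest of a list, a shared base of the marks and leaving out each library.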

Additional observations from a re-analysis of the deposited data

How the results depend on the processing

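The log2 ratio of promoters with H3K4me3, -0.02 with all libraries, changed sign without replicate 2 of H3K4me3 with GSK126 (0.01) and without replicate 1 with DMSO (0.02), where a library of 1 set is compared with both sets. With the replicate block by library set, an alternative chosen after seeing the data, the mean log2 ratio was -0.02 for H3K4me3 and -0.90 for H3K27me3 in the spike-in lists and -0.01 and -0.31 in the standard lists, and lower with GSK126 in each set. Promoters with both marks numbered 824 with the standard lists, 799 with standard lists for H3K27me3 alone and 304 with a minimum score of 2 times the lowest of each list, compared to 521. H3K27me3 was present with GSK126 at 79.1% of promoters with both marks in DMSO with the standard lists, 55.5% with windows of 1 kb either side and 45.1% with the score minimum, and at 85.6%, 58.6% and 56.5% of those with H3K27me3 only. With each library left out in turn, 11366 to 11728 promoters were H3K4me3 only, 1374 to 1557 H3K27me3 only, 531 to 642 both and 5758 to 6120 neither. The shares present with GSK126 were 51.3% to 53.1% and 60.0% to 60.3%, and the log2 ratios -0.93 to -0.87 for H3K27me3 and -0.05 to 0.02 for H3K4me3. With windows of 1 kb either side, the classes numbered 11215, 1255, 444 and 6016. Promoters with both marks numbered 769 when any protein-coding transcript start counted, 378 with at least 1000 bp of the window covered, 510 on autosomes and 450 with a shared base. Of 66 list counts recomputed with the standard lists, 54 were within 1.5 times and 12 moved by more, among them olfactory receptors (17 to 36 with H3K27me3), keratins (3 to 6), ZNF genes (3 to 10) and PAX, LIM, NKX, DLX, IRX and related factors with both marks (3 to 7). The causes were not tested. The depth of 5.09 M and 6.06 M (mega) tags limits the detection of H3K27me3 with GSK126, and 3.50 M tags that of H3K4me3 in replicate 2.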

Other observations

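Genes with several starts could carry different marks at different starts. Of 7289 genes with annotated transcript starts more than 4 kb apart, 121 (1.66%) had a start with H3K4me3 only and another with H3K27me3 only with GSK126, named here after their values were seen. The H3K4me3 start lay upstream of the H3K27me3 start at 66 genes and downstream at 55, at a median distance of 24.5 kb. At ABR, which encodes a GTPase-activating protein, the starts lay 16.8 kb apart, and at COL4A2, a basement membrane collagen gene, 39.4 kb. At CAMTA1, a transcription activator gene, they lay 879 kb apart, and at DLL1, a Notch ligand gene, 15.5 kb. The H3K4me3 start of DLL1, at 170615653 on chromosome 6, lies next to that of FAM120B, at 170615846 on the other strand. FAM120B is among the 121 genes as well, and an H3K4me3 island there can belong to either gene. The classes of these genes in the report refer to a single start each.

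The share of promoters with both marks with GSK126 varied between chromosomes, from 0.376% on chromosome 18 (1 promoter) to 6.44% on chromosome 22 (29 of 450), and that of H3K27me3 only from 2.37% on chromosome 4 to 13.9% on chromosome 20 (76 of 545). Of the promoters with H3K27me3 in both DMSO libraries, between 40.4% (chromosome 3) and 70.0% (chromosome 21) had it in both GSK126 libraries. Promoters of a chromosome share islands, and these shares were not tested.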
